A study of Saccharomyces cerevisiae with 78 samples.

Results

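Ribosome assembly begins in the nucleolus, where the long pre-ribosomal RNA is transcribed by RNA polymerase I, chemically modified, cut and folded around ribosomal proteins. Non-ribosomal assembly factors, among them RNA helicases, modification enzymes and RNA-binding proteins, act on the precursor particles and then leave them. In budding yeast the genes for these factors are known to be transcribed in parallel with growth rate and to be lowered together when cells meet stress. The messages of 7 such factors are described here: *NSR1* (YGR159C), *GAR1* (YHR089C), *HAS1* (YMR290C), *DBP3* (YGL078C), *SPB1* (YCL054W), *DHR2* (YKL078W) and *NOP4* (YPL043W). They are 7 of the 982 genes with a symbol on the array, and each is represented by 1 of the 1457 features with a symbol. The 7 genes were selected on their log2 ratios in these same arrays, with earlier results known, so their values in the strains are given as a description and support nothing about the intron deletions.

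Total RNA of 17 haploid *S. cerevisiae* mutants, each lacking the intron of a single ribosomal protein gene (RPG), was hybridized against RNA of a wild-type strain from the same parental background on 2-colour splicing arrays. The mutants are *rpl2a*Δi, *rpl2b*Δi, *rpl16a*Δi, *rpl23a*Δi, *rpl24a*Δi, *rpl29*Δi, *rpl31a*Δi, *rpl34a*Δi, *rpl35a*Δi, *rpl40b*Δi, *rps8a*Δi, *rps9a*Δi, *rps9b*Δi, *rps14a*Δi, *rps14b*Δi, *rps21b*Δi and *rps23a*Δi, where Δi stands for the exact removal of the intron at the gene's own locus. The deletions were made by transforming diploid cells of a common parental strain with gene-specific products, and the haploids received no drug and were grown in rich glucose medium beside wild type. The 78 arrays form 39 replicates, 9 strains with 3, 4 strains with 2 and 4 strains with 1 (*rpl24a*Δi, *rpl29*Δi, *rpl31a*Δi and *rps23a*Δi). In every replicate 1 array has the mutant labelled with Cy3 and 1 has it labelled with Cy5. Each value is the mutant's signal over that of wild type on a log2 scale, after the authors' normalization, so a value above 0 means relatively more message in the mutant. They hold no absolute level, and a ratio from cells in bulk cannot tell fewer cells that make a message from less message per cell. In all 34 combinations of strain and dye the lowest feature of the intronless gene lay at -0.43 or lower, on the side where a deleted sequence must fall. The sources used here do not tell which feature probes the intron. As the lowest feature was picked by its value, this is a weak check of the direction.

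A few properties of the arrays bear on the values below. The *a*-cell pheromone gene *MFA2* was at -3.04 or lower in 23 replicates and between -0.19 and 0.73 in the other 16, so mutant and wild type differed in mating type in part of the replicates, within strains as well as between them. The first part of the array names divides the arrays into 4 sets, called A to D here, and what that part stands for is not stated. Replicates of a strain that both lie in set C were much closer to each other than other replicates. The robust SD of their difference over all named features was 0.102 to 0.125 in the 8 such pairs, 0.144 to 0.225 in the 3 pairs within set B and 0.184 to 0.321 in the 20 pairs across sets. The set C pairs still differed by 1.36 to 1.70 times what the scatter of their spots gives, and were kept as separate replicates. The sources used here leave unsaid whether they are separate cultures, and results were also computed with each such pair averaged to 1.

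In *rpl40b*Δi all 7 genes were below wild type in each of the 3 replicates, with strain means between -0.53 and -0.34. Over the 7 genes the mean was -0.44 ± 0.07 (SD, n = 3), a ratio of 0.736 to wild type. On these arrays fold changes are compressed relative to quantitative PCR, by the study's own account. The 7 genes are taken below in the order of their roles, from RNA modification to RNA helicases and RNA-binding proteins.

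*GAR1* encodes a core protein of the H/ACA small nucleolar ribonucleoproteins (snoRNPs), which guide the conversion of uridines in ribosomal RNA to pseudouridine. Its log2 ratio in the replicates of *rpl40b*Δi was -0.52, -0.28 and -0.23, a mean of -0.34 ± 0.15 (SD, n = 3). Replicate 1, in set A, was the lowest of all 39 replicates, while the set C replicates were well above it. *SPB1* encodes a methyltransferase that acts on large subunit precursors. It measured -0.44, -0.58 and -0.57 in the same strain (-0.53 ± 0.08), the lowest mean of the 7, and here replicate 1 was the highest. Outside *rpl40b*Δi, *SPB1* had its lowest value of any replicate in *rps21b*Δi replicate 2 (-0.64).

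*HAS1* encodes a DEAD-box RNA helicase used in the assembly of both subunits. Its values in *rpl40b*Δi were -0.83, -0.18 and -0.17, a mean of -0.40 ± 0.38 (SD, n = 3). Replicate 1 holds the lowest value of any member in any replicate, and the other replicates were close to each other and much nearer to 0. *DBP3* encodes a DEAD-box protein needed for efficient cleavage in the first internal spacer of the pre-rRNA. It measured -0.39, -0.38 and -0.35 (-0.37 ± 0.02), the most even values among the 7. *DHR2* encodes a DEAH-box helicase of small subunit assembly. It measured -0.50, -0.43 and -0.55 (-0.49 ± 0.06), and its lowest value of any replicate, -0.69, was found in *rpl35a*Δi replicate 1.

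*NSR1* encodes the yeast counterpart of nucleolin, an RNA-binding protein of small subunit assembly. It measured -0.57, -0.49 and -0.39 in *rpl40b*Δi, a mean of -0.48 ± 0.09 (SD, n = 3). *NOP4* encodes a protein with RNA recognition motifs that is needed for the large subunit. It measured -0.41, -0.55 and -0.45 (-0.47 ± 0.07). For *NSR1* the set A replicate was the lowest of the strain and for *NOP4* it was the highest, so the order of the replicates was not shared by the 7 genes.

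By limma's moderated test with Benjamini-Hochberg adjustment over 1457 features, 6 of the 7 passed the threshold of 0.05 as lower in *rpl40b*Δi, all but *DBP3*. Over all features 2.68% were called lower in that strain and 5.49% higher. Since the selection of the genes used these ratios, nothing is read from that difference. The count rests on few replicates. Without replicate 1, 2 or 3 of *rpl40b*Δi, 1 of the 7 was called each time, where 1.37%, 0.275% and 0.824% of all features were called lower, and the mean of the 7 lay between -0.47 and -0.40. With array set as a block 1 of the 7 was called, with a mean of -0.36, where 1.99% of all features were called lower. With the set C replicates alone 7 of 7 were called, where 10.6% of all features were called lower, and with those replicates averaged to 1 the count was 0 of 7, where 0.137% of features were called lower (at an unadjusted p under 0.05, 7 of 7 beside 5.28% of all features). Summed over the strains with a set C replicate, that set alone gave 9 lower and 13 higher calls of 1 of the 7 genes in a strain, beside 6.61% and 6.77% of all tests.

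**Figure D1:**
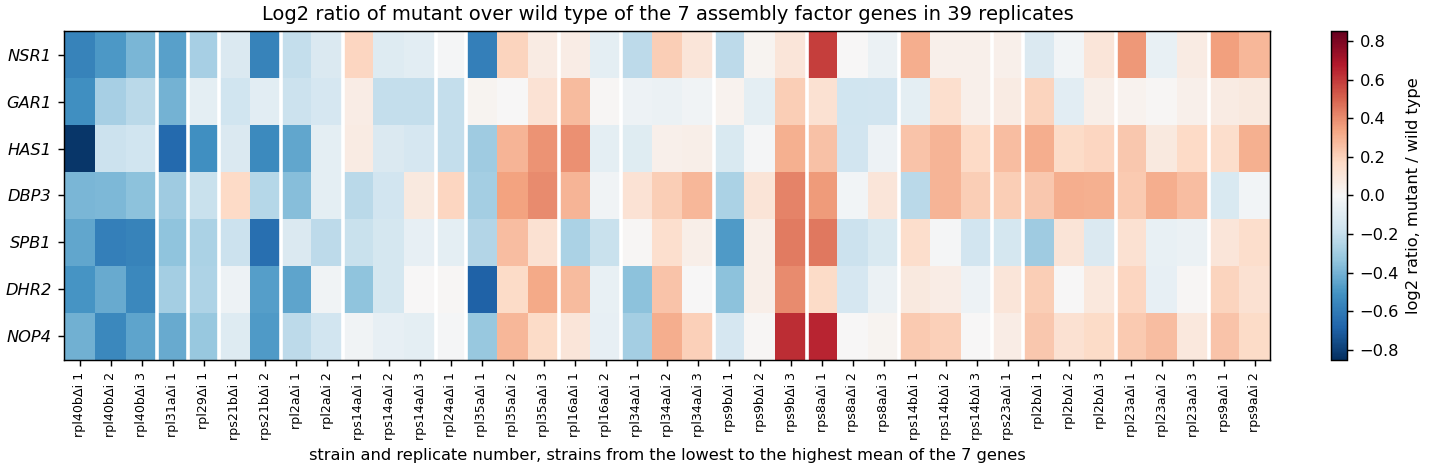
Log2 ratio of mutant over wild type (colour scale) of the 7 genes (rows) in each of the 39 replicates (columns), with strains separated by white lines and placed from the lowest to the highest mean of the 7 genes. All 7 genes lie below 0 in 10 columns and above 0 in 5, and the other 24 columns are of mixed sign. Every replicate of *rpl40b*Δi has all 7 genes below 0, and replicates of *rpl35a*Δi, *rps9b*Δi and *rps8a*Δi differ in colour.

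Across the 17 strains the mean of the 7 genes was below 0 in 7 and above 0 in 10. It was lowest in *rpl40b*Δi (-0.44 ± 0.07), followed by *rpl31a*Δi (-0.41, n = 1), *rpl29*Δi (-0.27, n = 1), *rps21b*Δi (-0.26 ± 0.25, n = 2) and *rpl2a*Δi (-0.20 ± 0.12, n = 2). In these 5 strains, and in *rps14a*Δi (-0.09 ± 0.04, n = 3), each of the 7 genes had a mean below 0. The replicates of *rpl40b*Δi ran from -0.52 to -0.39, and 2 other strains had a replicate inside that range, *rpl31a*Δi at -0.41 and *rps21b*Δi replicate 2 at -0.43. The other replicate of *rps21b*Δi was at -0.08, and *rpl31a*Δi has no spread of its own, so the order of these strains is not resolved. The single replicate of *rpl31a*Δi ranged over the 7 genes from -0.66 for *HAS1* to -0.29 for *DHR2*.

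At the upper end stood *rps9a*Δi with 0.15 ± 0.01 (SD, n = 2), *rpl23a*Δi with 0.11 ± 0.07 (n = 3) and *rpl2b*Δi with 0.10 ± 0.01 (n = 3). From *rpl35a*Δi (0.03 ± 0.33, n = 3) to *rps14b*Δi (0.09 ± 0.05, n = 3) the replicates of neighbours in the order overlapped, and those differences lay within the spread. *GAR1* and *HAS1* were lowest in *rpl31a*Δi (-0.40 and -0.66) and the other 5 genes in *rpl40b*Δi. The highest strain mean was that of *NSR1* in *rps9a*Δi (0.32), whereas *DBP3*, at -0.08, was the 1 gene below 0 there. Outside *rpl40b*Δi 0 of the 7 genes were called by limma in any strain, where 0.533% of all tests passed. At an unadjusted p under 0.05, 3 of the 7 were lower in *rpl31a*Δi, 3 in *rps21b*Δi and 1 in *rpl29*Δi, beside 2.88%, 3.43% and 3.02% of all features. At the same threshold 1 of the 7 was higher in each of *rpl23a*Δi, *rpl2b*Δi and *rps9a*Δi, beside 2.2%, 6.25% and 4.37% of all features.

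**Figure D2:**
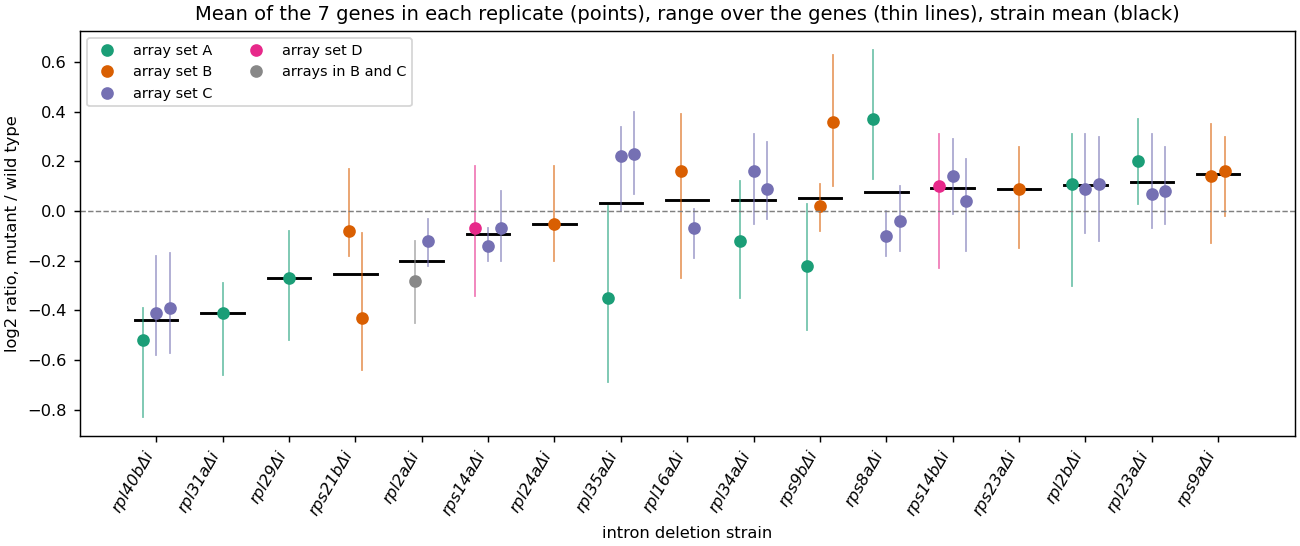
Mean log2 ratio of mutant over wild type of the 7 genes in each replicate (points, coloured by array set), with the range over the 7 genes (thin lines) and the strain mean (black bars), for the 17 strains in order of the mean. The 3 replicates of *rpl40b*Δi lie between -0.52 and -0.39, and the replicates of *rpl35a*Δi, *rps9b*Δi and *rps8a*Δi fall on either side of 0.

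Replicates of some strains lay on opposite sides of wild type, with most of the 7 genes moving together. *GAR1* did not follow the others in *rpl35a*Δi (0.02, 0.0 and 0.12) or *rps9b*Δi (0.03, -0.08 and 0.21). In *rpl35a*Δi the mean of the 7 was -0.35 in replicate 1 (set A), 0.22 in replicate 2 and 0.23 in replicate 3 (both set C). *NSR1* there measured -0.58, 0.19 and 0.07, and 6 of the 7 genes had replicates on either side of 0. In *rps9b*Δi the mean was -0.22 (set A), 0.02 and 0.36 (both set B), and in *rps8a*Δi it was 0.37 (set A), -0.10 and -0.04 (both set C). All 7 genes had replicates on either side of 0 in each of these strains. The highest values of *NOP4* were found there, 0.65 in *rps8a*Δi replicate 1 and 0.63 in *rps9b*Δi replicate 3. *MFA2* went with this split in *rps8a*Δi, at 0.49, -3.74 and -3.62, but not in *rpl35a*Δi (0.36, 0.73 and 0.44) or *rps9b*Δi (0.18, 0.03 and -0.11). The set A replicate was the lowest in 2 of these strains and the highest in the other.

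The difference between array sets within strains uses the same replicate values that the genes were selected on, and is given as a description. Replicates of set C minus those of set A gave differences between -0.05 (*GAR1*) and 0.14 (*DHR2*), with a mean of 0.07. By limma 0 of the 7 were called (0 at an unadjusted p under 0.05), where 3.29% of all features were called. Mating type was set beside the genes in the same way as values. In the 23 replicates with *MFA2* at -3.04 or lower the mean of the 7 ran from -0.52 to 0.16 (median 0.04), and in the other 16 it ran from -0.41 to 0.37 (median -0.02). The ranges largely overlap, and the part of mating type in the values was not tested. The pheromone gene *MF(ALPHA)1* measured 1.16, 6.59 and 5.13 in the replicates of *rpl40b*Δi. Replicate 1 of that strain and *rps21b*Δi replicate 2 (1.36) stood apart from the other 21 replicates with low *MFA2*, which ran from 4.55 to 6.78. It measured -4.48 in *rpl31a*Δi, -3.67 in *rpl29*Δi and -2.27 in *rpl2a*Δi replicate 1, against -0.35 to 0.41 in the 12 other measured replicates without low *MFA2*. The replicates in which this marker stood apart from the rest were thus among those with low values of the 7 genes, and its part in them was not tested.

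The dye of the mutant moved most of the genes, in opposite directions. Mutant in Cy3 minus mutant in Cy5 gave a difference of -0.40 ± 0.04 (SE) for *NSR1*, -0.40 ± 0.06 for *GAR1* and -0.13 ± 0.04 for *HAS1* (limma adjusted p = 2.52e-11, 7.27e-08 and 0.00855, 39 replicates). The difference was 0.38 ± 0.06 for *SPB1*, 0.21 ± 0.04 for *DBP3* and 0.19 ± 0.05 for *DHR2* (limma adjusted p = 3.09e-07, 1.85e-05 and 0.000461). *NOP4* did not pass (0.07 ± 0.03, limma adjusted p = 0.0765). Among all features 33.2% were called lower and 35.9% higher by dye, so an offset of this kind was common on these arrays. It is removed when the arrays of a replicate are averaged, provided that both hold a value, as they do for each of the 7 genes. Over the 7 genes it came to -0.01, and in *rpl40b*Δi their mean was -0.44 in the Cy3 arrays and -0.44 in the Cy5 arrays. Single genes differed there: *NSR1* measured -0.64 when Cy3 marked the mutant and -0.33 when Cy5 did, while *SPB1* measured -0.38 and -0.68 in that order. With arrays of 1 dye only, 3 of the 7 (Cy3) and 1 of the 7 (Cy5) were called lower in *rpl40b*Δi, beside 5.35% and 1.51% of all features.

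The 7 genes varied together over the replicates. Among their 21 pairs Pearson's r over the 39 replicates ran from 0.46 to 0.87 with a median of 0.77, against a median of 0.03 over all pairs of 665 genes that have a single feature and a value in every replicate. The closest pair was *NSR1* with *NOP4*, and the most distant was *GAR1* with *SPB1*. Without *rpl40b*Δi the median was 0.71, and over the deviations of replicates from their strain means it was 0.66 (range 0.08 to 0.80). The 7 values of a replicate share 2 arrays, their normalization and any array set, and replicates of a strain share a mutant, so these coefficients describe the arrays and carry no test. Within a replicate the SD over the 7 genes had a median of 0.13, against 0.35 over the genes with a single feature. The latter SD takes in the mating-type genes. It was 0.28 to 0.48 in the replicates with low *MFA2* and 0.15 to 0.35 in the others. The part of mating type in this gap was not tested. All 7 genes were below 0 in 10 replicates, all above 0 in 5, and of mixed sign in 24.

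*NOP4* followed the mean of the other 6 genes most closely (r = 0.93 over 39 replicates) and *GAR1* least (r = 0.70), with *DHR2* at 0.88, *HAS1* and *NSR1* at 0.85, and *DBP3* and *SPB1* at 0.79. *GAR1* also had the narrowest range, with replicates from -0.52 to 0.27 and a median of -0.03. *NSR1* ran from -0.58 to 0.59 with a median of -0.01. *HAS1* had the lowest minimum, at -0.83, with a median of 0.04 and a maximum of 0.39. *DBP3* was the gene with the most replicates above 0, 22 of 39, and *SPB1* the one with the most below 0, 26 of 39.

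Among 1209 other features with a value in every replicate, the 5 most like the mean of the 7 genes were 1 feature of *DBP2* (r = 0.94 over 39 replicates), *NOP2* (0.93), *MAK5* (0.89), *NOC3* (0.87) and *PUS7* (0.87). The median over all of them was -0.01. *DBP2* and *MAK5* encode DEAD-box RNA helicases, *NOP2* a methyltransferase of large subunit rRNA, *NOC3* a large subunit assembly protein and *PUS7* a pseudouridine synthase. The *DBP2* feature had the widest range of these 5, from -1.04 in *rpl40b*Δi replicate 1 to 1.07 in *rps8a*Δi replicate 1. It averaged -0.82 ± 0.20 (SD, n = 3) in *rpl40b*Δi, and the sources used here do not tell whether it probes the exon or the intron of *DBP2*. *NOP2* averaged -0.27 ± 0.20 and *MAK5* -0.34 ± 0.02 in that strain. Of the 20 most similar features, 15 belong to the lists of ribosome assembly genes used below. Those lists hold 77 of the 747 genes with a single feature, and their share of the 1209 compared features was not computed. The 7 genes and the lists were chosen with results of these data known, so nothing is read from this count. The least similar were features of *RPL31B*, *RPS7B*, *PRE3*, *RPS16B* and *RPP2B*, with r between -0.68 and -0.66.

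Other genes of the assembly pathway were also mostly below wild type in *rpl40b*Δi. They lay nearer to 0 than the 7 genes, from which nothing is read, since the 7 were selected on these ratios. In *rpl40b*Δi the 7 genes had a median of -0.47, against -0.13 for 77 other assembly genes with a single feature and -0.01 for all features. Of these 77, 66 were below 0 (390 of all 747 genes with a single feature were), 5 passed as lower and 1 as higher, beside 2.68% and 5.49% of all features. All 18 large subunit assembly genes were below 0, with a median of -0.25, and 0 passed. The 14 small subunit assembly genes had a median of -0.18 (13 below 0) and the 6 genes of RNA polymerase I and its factors -0.14 (6 below 0). The 9 snoRNP protein genes had a median of -0.06 with 5 below 0, and the 30 genes of pre-rRNA cleavage and the exosome -0.06 with 24 below 0. Among the snoRNP genes, *CBF5*, *NHP2* and *NOP10* encode the H/ACA partners of *GAR1*, and measured -0.11, -0.12 and 0.09. The genes of the ribosomal proteins themselves stayed near wild type, with a median of 0.01 over a list of 27 with a single feature. That list was drawn by symbol and also holds *RPP1* (-0.15), which encodes an RNase P and RNase MRP subunit and not a ribosomal protein.

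**Figure D3:**
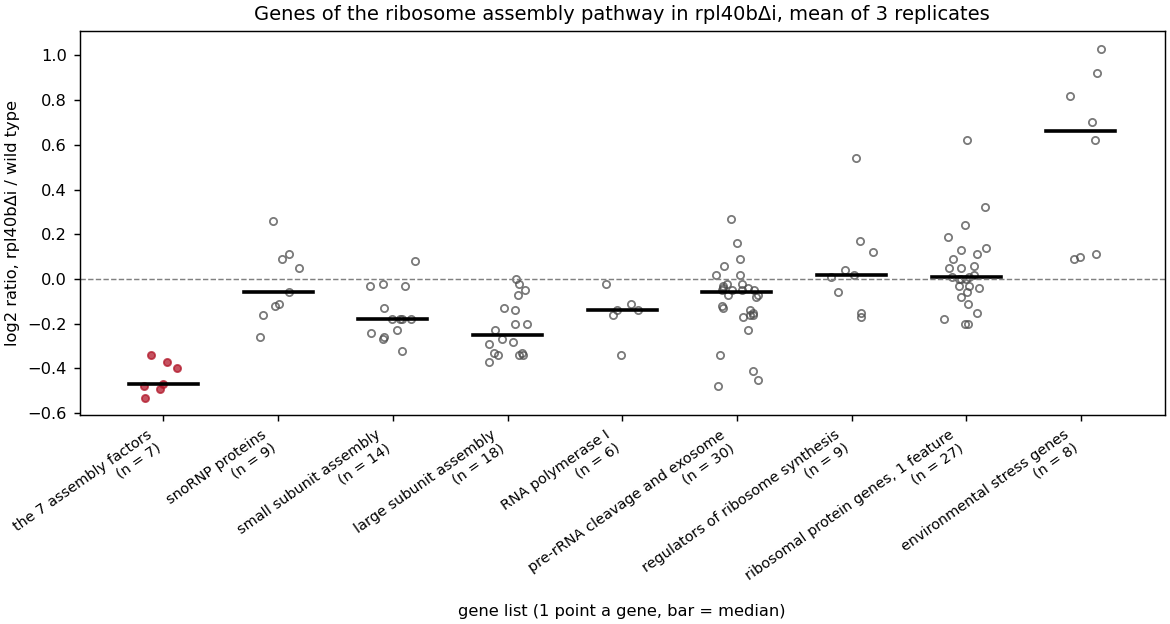
Log2 ratio of *rpl40b*Δi over wild type (mean of 3 replicates) for the 7 genes (filled) and for genes of other lists (open), 1 point a gene, with the median as a bar. The 7 genes lie between -0.53 and -0.34, below the medians of the other assembly lists (-0.25 to -0.06). They were selected on these ratios, so nothing is read from that gap. The environmental stress genes lie at or above 0.09.

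Of the 6 other assembly genes with a single feature that passed in *rpl40b*Δi, 5 belong to the list of pre-rRNA cleavage and the exosome. Among assembly genes with several features, the *DBP2* feature described above also passed as lower (-0.82, limma adjusted p = 0.0262). So did a pair of features of *NOG2*, a large subunit assembly GTPase (-0.41 and -0.40, limma adjusted p = 0.0043 and 0.00124). Another feature of *DBP2* averaged -0.58 and did not pass. How the calls of these *DBP2* and *NOG2* features depend on replicates and settings was not computed. *RNT1*, the yeast RNase III, measured -0.47, -0.43 and -0.44 in the 3 replicates (limma adjusted p = 0.0327). *REX4*, a predicted exonuclease, measured -0.55, -0.33 and -0.36 (limma adjusted p = 0.0438). *POP6*, a subunit of RNase MRP and RNase P, averaged -0.48 ± 0.41 (SD, n = 3, limma adjusted p = 0.0438), and its replicate 1 was at -0.01 where replicates 2 and 3 were at -0.66 and -0.77. *SNM1*, a subunit of RNase MRP, and *RRN6*, a core factor of RNA polymerase I, also fell (-0.34 ± 0.18 and -0.34 ± 0.23, limma adjusted p = 0.00725 and 0.0275). In contrast *POP5*, which shares its complexes with *POP6*, rose in each replicate (0.22, 0.28 and 0.31, limma adjusted p = 0.0327). Each of these 6 calls was lost without at least 1 replicate of *rpl40b*Δi, those of *RNT1*, *REX4* and *POP5* without any of the 3, and all 6 were lost with the set C replicates averaged to 1 (limma adjusted p from 0.1 to 0.518). With array set as a block *RNT1*, *REX4* and *RRN6* did not pass (limma adjusted p = 0.156, 0.257 and 0.156), and *REX4* did not pass with the replicate block (0.0538). With the mutant in Cy3 only none of the 5 lower genes passed (limma adjusted p from 0.134 to 0.37). *POP5* averaged 0.43 with Cy3 only and 0.11 with Cy5 only, where it did not pass (limma adjusted p = 0.725). With Cy5 only *REX4* and *RRN6* did not pass either (limma adjusted p = 0.081 and 0.115), while *POP6*, *RNT1* and *SNM1* did.

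In *rps9a*Δi, where the 7 genes were highest, the 77 other assembly genes had a median of 0.10 and 58 were above 0, beside 373 of 730 genes with a single feature. The only one of them that passed there was *POP4*, another RNase MRP and RNase P subunit (-0.51 and -0.37, limma adjusted p = 0.0426), beside 1.65% of all features called lower in this strain. Its mean was 0.43 with the mutant in Cy3, so its direction depends on the dye. The call was also lost with the replicate block (limma adjusted p = 0.0787), with each array as a replicate (0.28), with complete features only (0.0652), with single-feature genes only (0.0556), with the set C replicates averaged to 1 (0.0975), and without either replicate of the strain (0.519 and 0.268). In *rpl31a*Δi the 7 genes had a median of -0.40, the 77 others -0.13 (56 below 0, beside 488 of 747 genes with a single feature), and 0 of the 77 passed, beside 0.137% of all features.

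Over the 39 replicates the mean of the 77 other assembly genes followed that of the 7 genes with r = 0.90 (Spearman's rho 0.88). The r was 0.89 for large subunit assembly, 0.87 for cleavage and exosome, 0.78 for snoRNP proteins, 0.75 for small subunit assembly and 0.74 for RNA polymerase I. The mean of the 7 genes spanned -0.52 to 0.37, and that of the 77 genes -0.25 to 0.18. Nothing is read from the wider span of the 7 genes, as they were selected on these ratios. For the list of ribosomal protein genes with a single feature, *RPP1* included, r was -0.09, and for the 9 regulators of ribosome synthesis -0.10. As above, the points share arrays and mutants and these coefficients have no test.

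**Figure D4:**
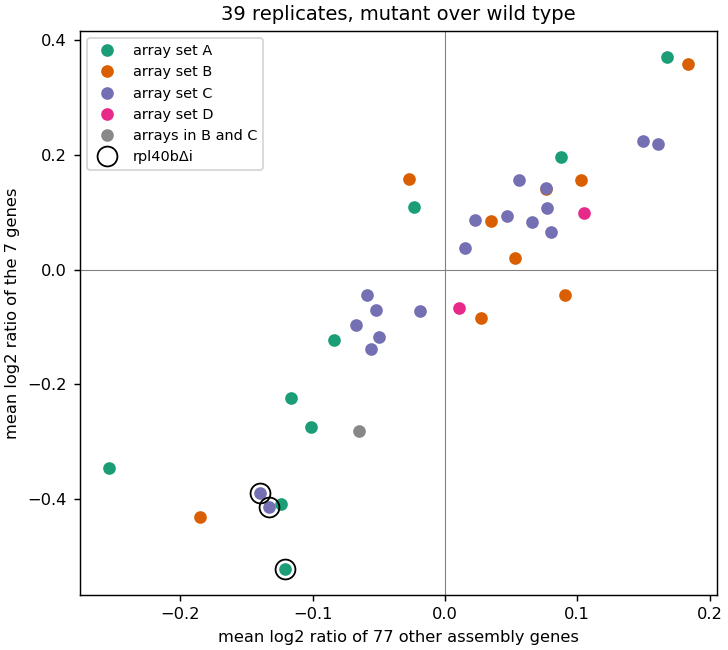
Mean log2 ratio of mutant over wild type of the 7 genes (vertical axis) against that of 77 other assembly genes (horizontal axis) in each of the 39 replicates, coloured by array set, with *rpl40b*Δi circled. The points rise together (r = 0.90), and the 7 genes, selected on these ratios, span -0.52 to 0.37 where the others span -0.25 to 0.18.

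Most chaperone genes of the stress list went the other way in *rpl40b*Δi. Of 8 environmental stress genes with a single feature all had means above 0, with a median of 0.66, and 4 passed as higher beside 5.49% of all features. These were the chaperone genes *HSC82* (0.92 ± 0.43, SD, n = 3), *SSA4* (0.82 ± 0.29), *SSA1* (0.70 ± 0.38) and *SSA2* (0.62 ± 0.24), with limma adjusted p = 0.000325, 0.00135, 0.0222 and 0.0408. The chaperone gene *HSP104* had the highest mean (1.03) and did not pass (limma adjusted p = 0.12). *SSA3*, *ALD3* and *GPD1* lay near 0 (0.11, 0.10 and 0.09), each with a replicate below 0, and *ALD3* had no value in replicate 2. With the set C replicates averaged to 1, and likewise without replicate 1 or 2 of *rpl40b*Δi, *HSC82* and *SSA4* still passed while *SSA1* and *SSA2* did not (without replicate 1, limma adjusted p = 0.284 and 0.293), and without replicate 3 *SSA2* did not pass. With array set as a block *HSC82* and *SSA4* passed, and *SSA1* and *SSA2* did not (limma adjusted p = 0.0759 and 0.113). With the mutant in Cy5 only 0 of the 4 passed by limma (adjusted p from 0.0757 to 0.283). The mean of the 8 genes was 0.89, 0.47 and 0.33 in the replicates of *rpl40b*Δi, where that of the 7 assembly factors was -0.52, -0.41 and -0.39. In *rpl31a*Δi, in contrast, the stress genes averaged -0.06 where the assembly factors averaged -0.41, and in *rps21b*Δi replicate 2 the values were -0.02 and -0.43. In *rps9a*Δi all 8 were below 0 with a median of -0.61. Over all 39 replicates the r with the assembly factors was -0.57, and -0.41 without *rpl40b*Δi. Among the 9 regulators, *GCN4*, a transcription activator of amino acid synthesis, passed as higher in *rpl40b*Δi, with 0.83 and 0.82 in replicates 2 and 3 and -0.04 in replicate 1 (limma adjusted p = 0.0193). This call was lost without replicate 2 or 3 (limma adjusted p = 0.333 and 0.232) and with the set C replicates averaged to 1. It was also lost with the mutant in Cy5 only (limma adjusted p = 0.0657).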

How the data were processed

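The authors deposited, for each spot, a normalized log2 ratio with the mutant on top, made with the marray and limma packages through Goulphar-derived code. Versions, background correction and spot filter are not given in the sources used, and no intensities were used, so the effect of dim spots could not be tested. Array medians lay between -0.03 and 0.01. Each feature is the mean of its 6 spots (133 of 3276 spots of the 7 genes had no value, and each gene had a value on all 78 arrays), and a replicate is the average of its dye-swapped arrays. Where 1 of those arrays had no value for a feature, the replicate is the other array alone. Spots were named by the array's annotation, with 8742 spots given 1 symbol, 0 several and 474 none, and all 982 symbols matched the yeast gene table. Array numbers, 1 to 3 replicates a strain, limit the precision. Separate cultures for the replicates are not stated, and the spread behind p-values may be technical.

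A limma 3.58.1 model (R 4.3.3) of all 1457 features with a symbol had 1 mean per strain, tested against 0 by eBayes with 22 residual degrees of freedom, with Benjamini-Hochberg adjustment per strain and 0.05 as the threshold. Strains with 1 replicate borrow the spread of the rest. The fit was tested on simulated data. Differences by dye (Cy3 minus Cy5 within replicates) and by array set (C minus A, with strain in the fit, leaving out 1 replicate of *rpl2a*Δi whose arrays lie in sets B and C) were fitted likewise. The 7 genes and the gene lists were chosen with earlier results of these data known. Named beside the 7 genes are the 5 features most like their mean, and, in the strains where their mean is lowest and highest, up to 3 assembly genes each way that passed with 1 sign in every replicate. *SNM1*, *RRN6*, *NOG2*, the stress genes and *GCN4* were named after their values were seen. Lists are described over genes with a single feature. Alternatives were centring, scaling, the median over spots, either dye, array set as a block or alone, replicate block, complete features, single-feature genes, robust eBayes, each array as a replicate, leaving out each replicate and, chosen after seeing the data, averaging the set C replicates of a strain. Summaries and figures were made in Python 3.11.15 (pandas 2.3.3, numpy 2.4.6, matplotlib 3.10.9).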

Additional observations from a re-analysis of the deposited data

Results flagged for a closer look

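Among the strains with at least 2 replicates, 4 had the mean of the 7 genes below wild type in every replicate and 4 had it above wild type in every replicate. Those below were *rpl40b*Δi (-0.44), *rps21b*Δi (-0.26), *rpl2a*Δi (-0.20) and *rps14a*Δi (-0.09). Those above were *rps9a*Δi (0.15), *rpl23a*Δi (0.11), *rpl2b*Δi (0.10) and *rps14b*Δi (0.09). The difference between these strains was not tested, since the genes were selected with these values known.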

How the results depend on the processing

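The count of the 7 genes called lower in *rpl40b*Δi (6, which is also the sum over all strains) was 3 with the mutant in Cy3 only, 1 with Cy5 only, 1 with array set as a block (mean of the 7 -0.36) and 0 with the set C replicates averaged to 1. It was 1 to 7 when each replicate was left out, with 1 without any replicate of *rpl40b*Δi. With set B only the sum over strains was 0, and with set C only it was 9 lower and 13 higher calls of a gene in a strain, where 6.61% and 6.77% of all tests in those strains were called. Set A alone leaves no residual degrees of freedom and was not run. The mean of the 7 in *rpl40b*Δi stayed below 0 in every setting that holds this strain, and lay between -0.47 and -0.40 when each replicate was left out. All features called lower in *rpl40b*Δi (39) were 78 with Cy3 only, 22 with Cy5 only, 154 with set C only, 59 with each array as a replicate, 2 with the set C replicates averaged and 4 to 50 when each replicate was left out. Those called higher (80) were 47 with Cy5 only, 193 with set C only, 53 with single-feature genes only, 14 with the set C replicates averaged and 16 to 89 when each replicate was left out. *POP4* in *rps9a*Δi turned to 0.43 with Cy3 only. The cause of these changes was not tested. The replicate numbers do not pair the samples (median r of deviations 0.05 for same-numbered replicates of different strains, range -0.40 to 0.50). With the replicate block 6 of the 7 were called in *rpl40b*Δi.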
